A study of Mus musculus with 6 samples.

Results

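The 34 genes described here are transcription factors, synaptic proteins and signalling proteins known from the projection neurons of the neocortex. They were chosen by name, with earlier results of these data known, so their shares beside those of all genes are description only. Every non-control probe of the array that carries 1 of these names was taken. All 34 were measured, by 58 of the 39429 probes, and they make up 34 of the 22578 genes tested. From textbook knowledge 10 were placed with the upper cortical layers, 11 with the deep layers and 13 with neither, being found in all layers or beyond the neocortex.

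Brain tissue came from male mice of the C57BL/6N background. The labels give 3 samples as wild type and 3 as lacking Pla2g2e, which encodes a secreted phospholipase A2, and title all 6 as sham-operated. The treatment text of every sample, however, describes middle cerebral artery occlusion, a model of transient brain ischemia, and the labels do not settle which text holds, so sham operation here means only the title. They give neither the age of the mice, the part of Pla2g2e that was deleted, the region of the brain, nor whether the samples were separate animals, so every p-value measures only a spread among samples that could be technical in origin. Samples were read out on 1-colour Agilent arrays, 1 array each, and the smallest p that an exact two-sided permutation test of 3 against 3 can give is 0.1.

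Projection neurons are the excitatory neurons that carry signals out of a cortical area. Those of the upper layers send axons mainly to other cortical areas, those of layer 5 to the brainstem and spinal cord, and those of layer 6 to the thalamus, while layer 6b is the remnant of the embryonic subplate. These identities are set by transcription factors such as CUX2 in upper layers, FEZF2 in layer 5 and TBR1 in layer 6, which remain detectable in the adult cortex. Several of the members also act outside the neocortex, such as Neurod1 in the dentate gyrus, Crym in the striatum and Rorb in the thalamus. In RNA of whole tissue, fewer cells of a type and less RNA per cell cannot be told apart.

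All 58 member probes were well above background on all 6 arrays and 0 were saturated, so each of the 34 genes had a probe with signal in both groups. Between 82.0% and 85.3% of the 43020 non-control spots of each array were well above background. The slide of knockout 1 also held all 3 wild-type samples, whereas knockout 2 and 3 lay on a slide of their own. Wild-type 3 stood apart in its striatum markers: the median of 13, set against the wild-type mean, was 0.96 there and between -0.86 and -0.28 on the other 5 arrays. Other samples deviated in other markers: the median of 10 oligodendrocyte markers was 0.47 in wild-type 2 and -0.72 in knockout 2. The general neuron markers did not separate in this way, with medians between -0.03 and 0.11 over all 6 arrays. The small number of arrays limits precision.

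The probes that the results turn on are shown by their first 30 of 60 bases, as written in the deposited files (mm9). The first set holds the probes of the 3 deep-layer genes that were lower in every knockout sample: neurexophilin 4 (Nxph4, with both its probes), reprimo (Rprm) and complexin 3 (Cplx3). The files list all 4 positions from high to low, the minus strand: chr10:126962668-126962727 and chr10:126963605-126963664 for Nxph4, chr2:53936668-53936727 for Rprm and chr9:57449640-57449699 for Cplx3. No exon or untranslated region is named for them, since no annotation of that build was used here.
Nxph4, brighter probe: tcctaaccttgctaaagcaaaagtcctgat
Nxph4, dimmer probe: tgtacttccgtcacaattcgtccagcctgg
Rprm: tgtgaatggggtaagtgctttcttttagtg
Cplx3: gacacagaagccctggctcatttgccacag

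A second set shows where a member's probes are less independent or less specific than their number would have it. The brightest Sox5 probe (chr6:143776945-143776971, minus strand) is a run of the triplet GGA, in capitals below. Its 60 bases hold 12 distinct stretches of 6 bases, against 43 or more in every other member probe and a median of 55 over all probes, and 0.0533% of all probes hold as few. The files give this 60-base probe a genomic span of only 27 bases.
Sox5, brightest probe: GGAGGAGGAGGAagaGGAGGAGGAGGAaga
The Zfpm2 probes (chr15:40935062-40935121 and chr15:40935115-40935174, plus strand) overlap by 7 bases, in capitals below, where the end of the first and the start of the second are shown.
Zfpm2, end of the first probe: ctcatcacatgcagcagaacatgTCAAATG
Zfpm2, start of the second probe: TCAAATGaactaactgagttactaaagaaa

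Levels below are the log2 of the processed signal minus the array's 75th percentile, so 0 is a probe as bright as that percentile, and they are compared between samples of the same probe only. A difference is knockout minus wild type on that log2 scale, with its standard error from limma. Where a gene had several probes, the brightest stood for it.

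No member passed the test. With limma and Benjamini-Hochberg adjustment over all genes, 0 of 34 members and 0 of 22578 genes (0%) had an adjusted p under 0.05, and the smallest adjusted p among members was 0.194, for Nxph4. Tested probe by probe, 0 of the 58 member probes and 0 of 31954 probes passed. Before adjustment, 8 members had a p under 0.05 (23.5% of 34, against 12.4% of all genes), 4 of them higher in knockout (background 3.07%) and 4 lower (background 9.35%).

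The 3 knockout values lay all above the 3 wild-type values in 6 members (background 7.6% of genes) and all below them in 4 (background 12.2%), which is 29.4% of the members against 19.8% of all genes. The 4 lower ones were Nxph4, Rprm and Cplx3 of the deep layers and Lmo3, while the 6 higher ones were Nrn1, Emx2, Lhx2, Bcl11a and Tox, which are not restricted to a layer, and Pou3f3 of the upper layers. Whether the layer groups differ from each other was not tested. Leaving out a sample can only keep or raise such counts, so it cannot show whether they rested on single arrays. The higher count was 12 without wild-type 2 (background 14%), 10 without knockout 1 (background 17.8%) and 10 without knockout 2 (background 9.85%). It fell to 4 (background 7.46%) when the mean over a gene's probes replaced the brightest probe. The lower count was 7 without wild-type 2 (background 21.1%).

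The difference was above 0 in 24 members and below 0 in 10, with a median of 0.12 against -0.01 over all genes. The median was 0.15 in the upper-layer group, 0.09 in the deep-layer group and 0.10 in the rest. Without wild-type 2 the median of all members was 0.06, and with slide as a block, which sets knockout 1 against the 3 wild-type samples, it was also 0.06. The upper-layer median was -0.04 with slide as a block. With 1 sample left out, it ranged from 0.024 (without wild-type 2) to 0.21 (without knockout 1), and was 0.042 without knockout 2. The deep-layer median ranged from 0.030 (without knockout 3) to 0.21 (without knockout 1), and was 0.062 without wild-type 1 and 0.15 without wild-type 2. That of the rest ranged from 0.064 (without wild-type 2) to 0.16 (without wild-type 1). Centring each array on its median instead of the 75th percentile moved the median of all genes to 0.13 and that of the members to 0.26. Under it Cux1, Emx1 and Tbr1 had differences of 0.03, 0.06 and 0.14, above 0, while Nxph4, Rprm, Cplx3 and Lmo3 stayed below 0 at -0.50, -0.42, -0.51 and -0.28. Within the deep-layer group the differences ranged from -0.65 to 0.99, a wider span than the -0.27 to 0.35 of the upper-layer group or the -0.42 to 0.41 of the rest.

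**Figure D1:**
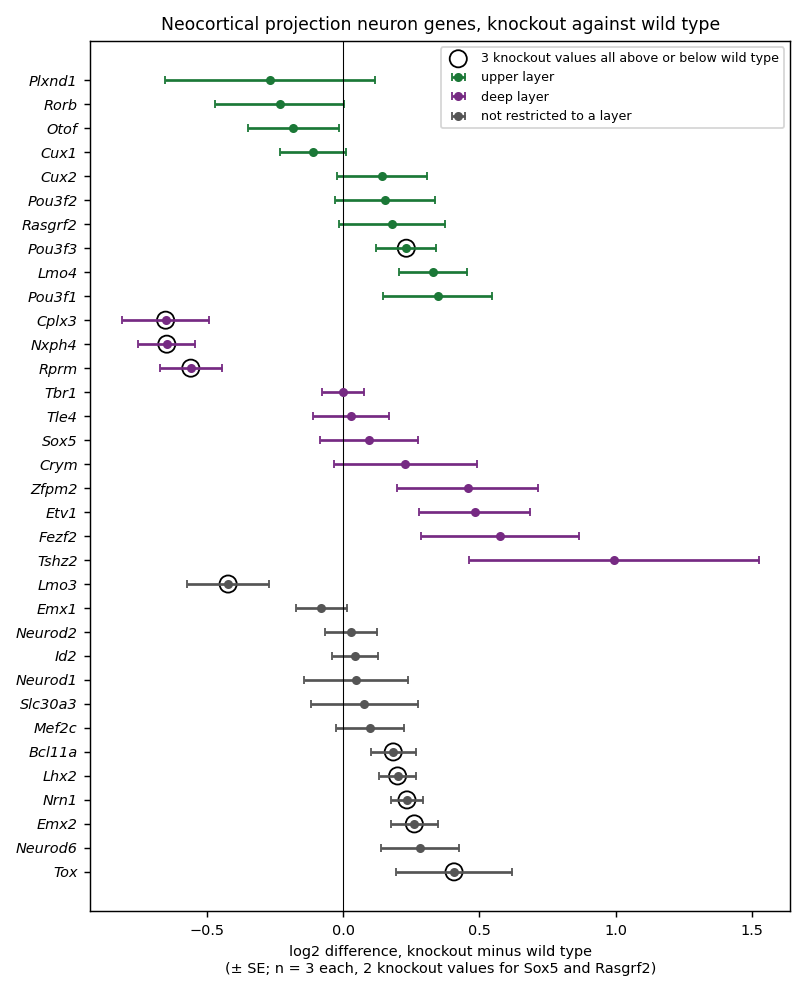
Difference of each member on the log2 scale (horizontal axis, knockout minus wild type, with its standard error), by layer group and sorted within it. Circles mark the 10 members whose 3 knockout values lie all above or all below wild type. Nxph4, Rprm and Cplx3 sit at -0.56 or below, while Fezf2 and Tshz2 of the same group sit at 0.58 and 0.99 with wide errors.

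Of the 11 deep-layer genes, 3 (27.3%) were lower in every knockout sample, against 12.2% of all genes. They include Nxph4 and Cplx3, known from layer 6b, while Nr4a2, a layer 6b marker outside the member list, overlapped. Nxph4 encodes a secreted glycoprotein that binds alpha-neurexins and is used as a marker of layer 6b. It read -2.74, -2.65 and -2.54 in wild-type 1, 2 and 3 and -3.12, -3.45 and -3.30 in knockout 1, 2 and 3. The groups did not overlap, and the spread within each was smaller than the gap between them. The difference was -0.65 ± 0.10 (SE, n = 3 each), 1.57-fold lower, with an adjusted p of 0.194. Its dimmer probe, also free of overlap, gave -0.25 ± 0.08 (SE) with an adjusted p of 0.351 over all probes. With slide as a block the difference of the brighter probe was -0.48.

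Cplx3 encodes a complexin, a small protein that binds the SNARE complex at the synapse, and is likewise expressed in layer 6b. It read -1.13, -0.87 and -1.31 in wild type and -1.53, -1.98 and -1.75 in knockout. Every knockout value was below every wild-type value, by 0.22 between the nearest samples, wild-type 3 and knockout 1. The difference was -0.65 ± 0.16 (SE, n = 3 each) with an adjusted p of 0.272, and with slide as a block it was -0.43, since knockout 1 was the highest of the 3 knockout samples.

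Rprm, reprimo, is named for its role in p53-dependent arrest of the cell cycle and is a marker of layer 6 in the cortex. It read 2.62, 2.97 and 2.96 in wild type and 2.37, 2.28 and 2.22 in knockout. The knockout samples lay close together and below all wild-type samples, the nearest of which was wild-type 1. The difference was -0.56 ± 0.11 (SE, n = 3 each), 1.47-fold lower, with an adjusted p of 0.249, and -0.48 with slide as a block.

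**Figure D2:**
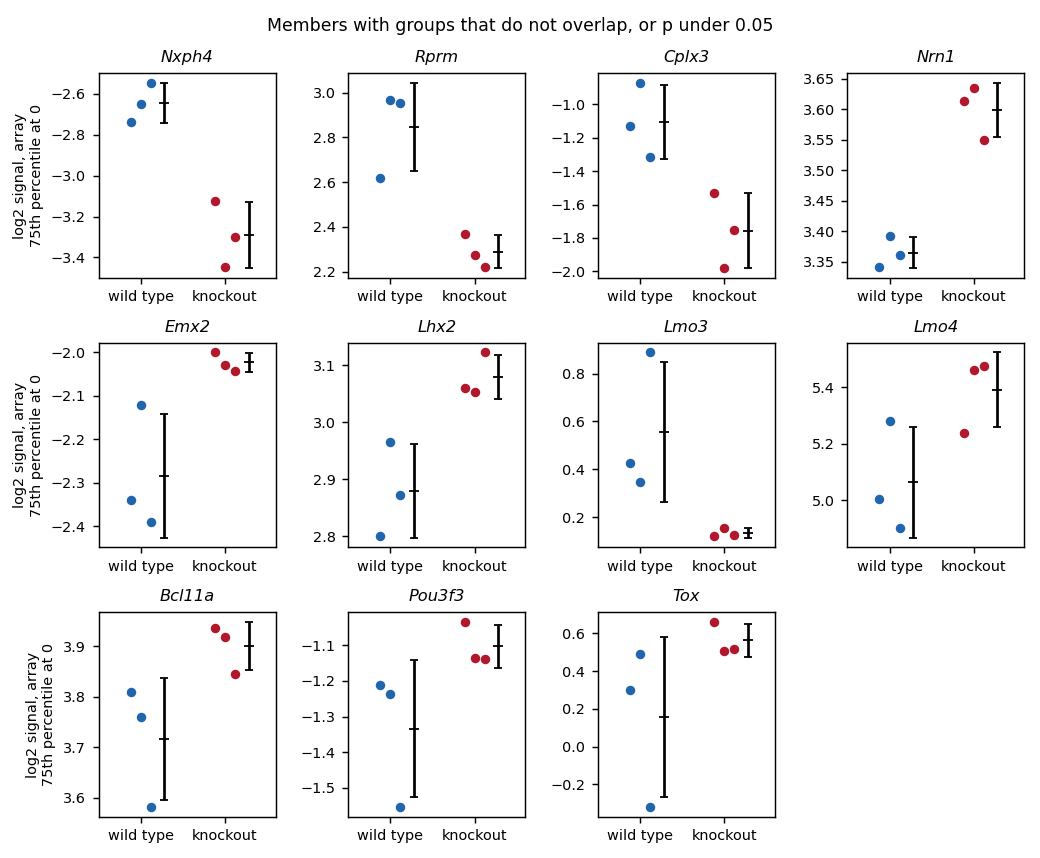
Level on each array (vertical axis, log2 signal with the array's 75th percentile at 0, a scale of its own per gene) for the 10 members whose groups do not overlap and for Lmo4, whose unadjusted p was under 0.05. Points are samples in the order 1 to 3, and bars are mean ± SD (n = 3). In Lmo4 knockout 1, at 5.24, lies below wild-type 2, at 5.28.

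Tbr1 and Tle4, which mark layer 6 neurons projecting to the thalamus, did not share this pattern. TBR1 is the T-box transcription factor of these neurons, and its probe read 4.53, 4.34 and 4.33 in wild type and 4.39, 4.44 and 4.37 in knockout. The groups interleaved, the difference was -0.00 ± 0.08 (SE), and its 95% interval ran from -0.19 to 0.19. Tle4, a corepressor of the Groucho family, differed by 0.03 ± 0.14 (SE), with an interval of -0.31 to 0.37. Sox5, a SRY-box factor of early-born deep-layer neurons, differed by 0.09 ± 0.18 (SE) at the repeat-rich probe shown above, where knockout 2 had no value because its spot was an outlier. The wild-type mean was 5.33 at that probe and -5.32 and -8.13 at the other Sox5 probes, which gave 0.09 and 0.12, both with overlap. How far the bright signal comes from Sox5 was not tested. That Tbr1 and Tle4 differ from Nxph4, Rprm and Cplx3 was not tested.

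Fezf2, Etv1 and Tshz2, members known from layer 5, had higher means in knockout, with overlap in all 3, while Pcp4 and Bcl11b, genes of layer 5 outside the member list, differed by -0.24 and -0.07. Fezf2 encodes the zinc finger factor that directs neurons to the corticospinal fate. It read -0.19, 0.27 and -0.89 in wild type and 0.45, 0.16 and 0.31 in knockout. Wild-type 2 lay within the knockout range and wild-type 3 lay far below the rest, so the difference of 0.58 ± 0.29 (SE, adjusted p 0.464) was 0.27 without wild-type 3. Etv1, an ETS factor of layer 5, read 3.39, 3.72 and 3.04 in wild type and 4.09, 3.63 and 3.87 in knockout, a difference of 0.48 ± 0.20 (SE, adjusted p 0.407). Its wild-type 3 was again the lowest of 6 samples, without which the difference was 0.31, and its wild-type 2 exceeded knockout 2.

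Tshz2, a teashirt zinc finger factor found in a class of layer 5 neurons, had the largest and least precise difference of the members. It read -1.80, -0.92 and -1.38 in wild type and 0.65, -1.41 and -0.36 in knockout. Knockout 1 was the highest and knockout 2 lay inside the wild-type range, and the knockout samples spanned 2.05 against 0.87 in wild type. The difference was 0.99 ± 0.53 (SE, adjusted p 0.487), and 0.48 without knockout 1. The second Tshz2 probe ranked the knockout samples in the same order, at -0.61, -3.00 and -1.92, so the high value of knockout 1 was not confined to 1 spot.

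The remaining deep-layer members overlapped as well. Zfpm2, a cofactor of GATA factors, differed by 0.46 ± 0.26 (SE) at each of its partly overlapping probes, and by 0.20 without wild-type 3. Crym, a thyroid hormone binding protein, read 2.37, 3.37 and 2.55 in wild type and 3.03, 2.88 and 3.07 in knockout, with a difference of 0.23 ± 0.26 (SE). The wild-type samples of Crym spanned 1.00 and the knockout samples 0.19.

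**Figure D3:**
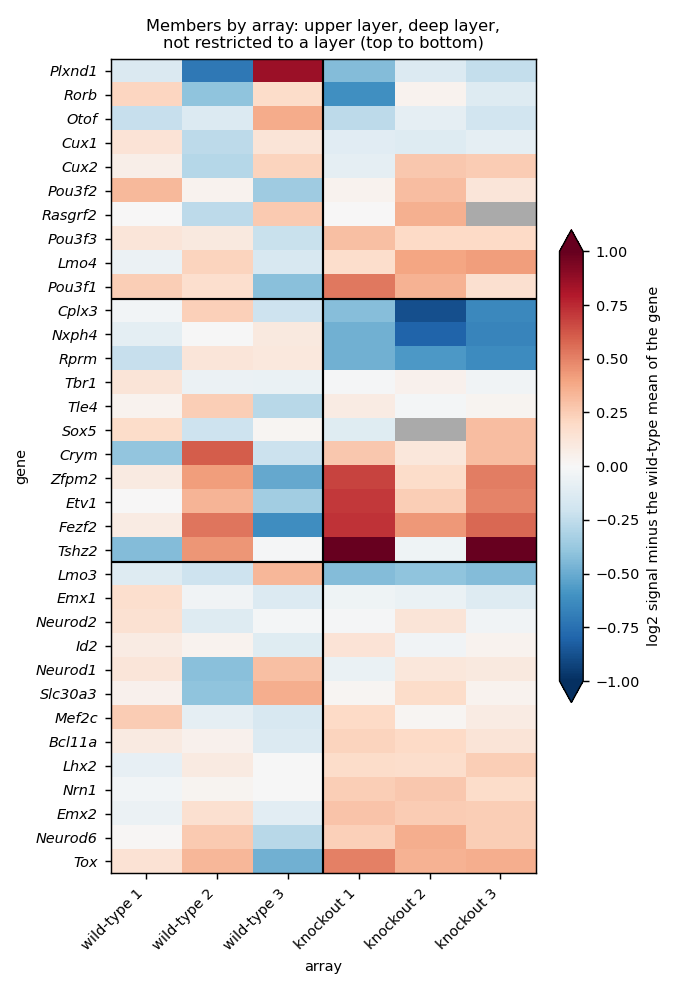
Level of each member on each array (columns) minus the gene's wild-type mean, on the log2 scale. Rows are grouped as upper layer, deep layer and not restricted, the colour scale ends at -1 and 1 (knockout 1 and 3 of Tshz2 lie beyond it), and grey marks the 2 values left out as outlier spots. Nxph4, Rprm, Cplx3 and Lmo3 are below the wild-type mean (blue) in every knockout column, while Tshz2, Fezf2, Etv1 and Zfpm2 are furthest above it (red) in knockout 1.

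In all 10 upper-layer members the range of the wild-type samples exceeded the size of the difference between the groups. Cux2, which encodes a cut-homeodomain factor of layers 2 to 4, read 1.75, 1.40 and 1.91 in wild type and 1.59, 1.95 and 1.94 in knockout. The groups overlapped, and the difference of 0.14 ± 0.17 (SE, 95% interval -0.26 to 0.55) was -0.09 with slide as a block. The related Cux1 differed by -0.11 ± 0.12 (SE), and its other probes gave -0.23 and -0.36, all 3 with overlap. Rorb, the nuclear receptor that marks layer 4, read 1.52, 0.91 and 1.49 in wild type and 0.70, 1.35 and 1.18 in knockout. Its lowest sample was knockout 1 and its next lowest wild-type 2, and the difference was -0.23 ± 0.24 (SE, 95% interval -0.81 to 0.35).

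Among the POU-domain factors, which act in upper-layer neurons and beyond, Pou3f3 was the only upper-layer member whose groups did not overlap. It read -1.21, -1.24 and -1.56 in wild type and -1.03, -1.14 and -1.14 in knockout, a difference of 0.23 ± 0.11 (SE, adjusted p 0.444). Knockout 3 exceeded wild-type 1 by only 0.07, less than the spread within either group. Pou3f1 differed by 0.35 ± 0.20 (SE), Pou3f2 by 0.15 ± 0.18 at its brightest probe, and both had wild-type 3 as their lowest sample. Without it Pou3f1, Pou3f2 and Pou3f3 differed by 0.14, -0.03 and 0.12.

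Lmo4, a LIM-only adaptor of transcription complexes, read 5.00, 5.28 and 4.90 in wild type and 5.24, 5.46 and 5.48 in knockout. Its difference was 0.33 ± 0.13 (SE, unadjusted p 0.0392, adjusted p 0.382), with knockout 1 below wild-type 2. At its second probe the groups were free of overlap and the difference was 0.34 ± 0.15. The other 3 upper-layer members overlapped. Plxnd1, a semaphorin receptor, spanned 1.57 among wild-type samples because wild-type 3 read 3.54 against 2.55 and 1.97, and its difference of -0.27 was 0.16 without wild-type 3. Otof, a calcium sensor of vesicle fusion, differed by -0.18 ± 0.17 (SE). Rasgrf2, an exchange factor for Ras, differed by 0.18 ± 0.19 with knockout 3 left out as an outlier spot. The files place the Rasgrf2 probes 774 kb apart, more than the 251 kb that the gene spans in the RefSeq annotation of GRCm38.p6.

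Of the 13 members not restricted to a layer, 5 were higher and 1 lower in every knockout sample (backgrounds of 7.6% and 12.2%), with small differences. Nrn1 encodes neuritin, a surface protein induced by neuronal activity, and read 3.34, 3.39 and 3.36 in wild type and 3.61, 3.64 and 3.55 in knockout. Both groups were tight, and the difference was 0.23 ± 0.06 (SE, adjusted p 0.287). The dimmer Nrn1 probe differed in sign, at -0.10 ± 0.10 (SE), with overlap. In the transcript listed for each, the brighter probe starts at base 1112 and the dimmer at base 72.

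Homeobox genes of the dorsal telencephalon were mixed. Emx2 read -2.34, -2.12 and -2.39 in wild type and -2.00, -2.03 and -2.04 in knockout, a difference of 0.26 ± 0.09 (SE, adjusted p 0.348). Lhx2, a LIM-homeobox factor, read 2.80, 2.97 and 2.87 in wild type and 3.06, 3.05 and 3.12 in knockout, a difference of 0.20 ± 0.07 (SE, adjusted p 0.358). In both genes wild-type 2 was the wild-type sample nearest to the knockout samples. Emx1, used to define the cortical excitatory lineage, read -0.33, -0.54 and -0.64 in wild type and -0.55, -0.57 and -0.63 in knockout. It overlapped, with a difference of -0.08 ± 0.09 (SE) and a 95% interval of -0.31 to 0.15.

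Bcl11a, a zinc finger repressor, read 3.81, 3.76 and 3.58 in wild type and 3.94, 3.92 and 3.85 in knockout, a difference of 0.18 ± 0.08 (SE, adjusted p 0.425), or 0.12 without wild-type 3. Its other 3 probes all overlapped, with differences of 0.01, 0.03 and 0.12. Tox, an HMG-box protein, read 0.30, 0.49 and -0.32 in wild type and 0.66, 0.51 and 0.52 in knockout. Wild-type 2 and knockout 2 were nearly equal and wild-type 3 lay far below, so the difference of 0.41 ± 0.21 (SE, adjusted p 0.478) was 0.17 without wild-type 3. At the second Tox probe the groups overlapped.

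Lmo3, a LIM-only protein, was the only member of the 13 that was lower in all knockout samples. It read 0.43, 0.35 and 0.89 in wild type and 0.12, 0.16 and 0.12 in knockout. The knockout samples agreed closely and wild-type 3 was the highest, and the difference was -0.42 ± 0.15 (SE, adjusted p 0.364), or -0.25 without wild-type 3. The second probe gave -0.32 ± 0.18 with overlap.

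The neurogenic differentiation factors, bHLH proteins of excitatory neurons, overlapped. Neurod6 read 0.91, 1.17 and 0.63 in wild type and 1.14, 1.27 and 1.15 in knockout, a difference of 0.28 ± 0.14 (SE, adjusted p 0.466) with a 95% interval of -0.07 to 0.63. Wild-type 2 lay inside the knockout range, and without wild-type 3 the difference was 0.14. Neurod2 differed by 0.03 ± 0.10 and Neurod1 by 0.05 ± 0.19 (SE), and the second Neurod1 probe had the opposite sign. Mef2c, a MADS-box factor, Id2, an inhibitor of bHLH factors, and Slc30a3, the vesicular zinc transporter of glutamatergic terminals, differed by 0.10, 0.04 and 0.08, each within overlapping groups.

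Of the 34 members, 19 had 2 to 4 probes. In 16 of these all probes of the gene had the same sign, and in the other 3, Nrn1, Neurod1 and Tbr1, they did not. The gap between probes was smallest in Zfpm2, whose probes share bases, followed by Tox (0.41 and 0.41), Tbr1 (-0.00 and 0.01) and Plxnd1 (-0.27 and -0.28), whose probes do not overlap in position. The widest gap between probes, 0.40, was in Nxph4.

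**Figure D4:**
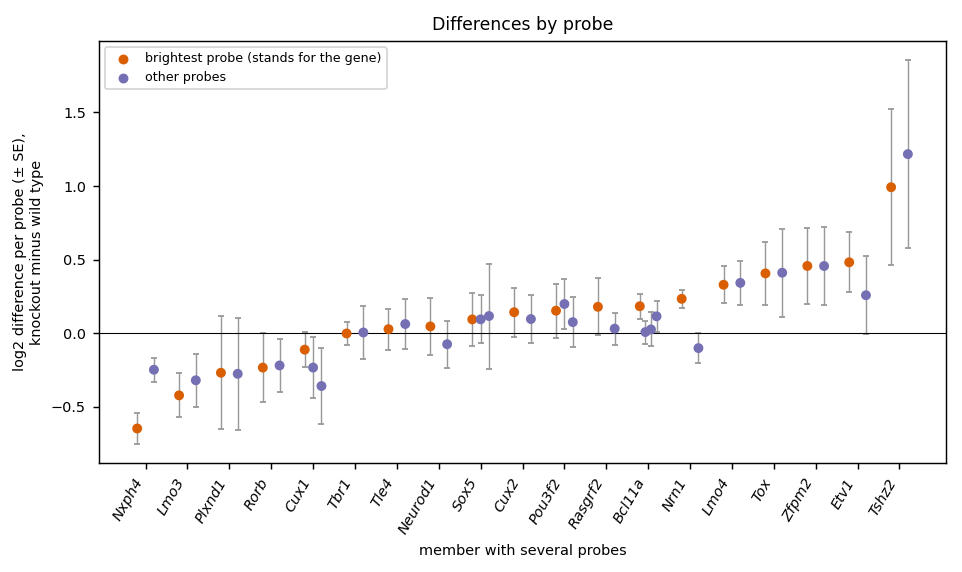
Difference per probe (vertical axis, log2, with its standard error from the fit over all tested probes) for the 19 members with several probes, sorted by the probe that stands for the gene. The Nxph4, Lmo3 and Cux1 probes lie on the same side of 0, and the Nrn1 probes on opposite sides at 0.23 and -0.10.

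The list of other genes of cortical excitatory neurons, 39 of them measured, had 16 differences above 0 and 23 below. By the same test 0 of 39 passed, 6 were higher and 8 lower in all knockout samples (35.9% together, against 19.8% of all genes), and the median difference was -0.07. Slc17a7, the vesicular glutamate transporter of these neurons, differed by -0.07 ± 0.08 (SE, 95% interval -0.28 to 0.13), and Bcl11b, a factor of subcerebral neurons, by -0.07, both with overlap. Among the 8 lower genes were 3 of layers 6 and 6b, a grouping noticed after their values were seen. Foxp2, a forkhead factor of layer 6, differed by -0.53 ± 0.14 (SE, adjusted p 0.291). Ccn2, a matricellular protein and layer 6b marker, read 2.37, 2.66 and 2.52 in wild type and 2.22, 1.73 and 2.08 in knockout (-0.51 ± 0.15, adjusted p 0.319), and differed by -0.29 with slide as a block. Ntsr1, the neurotensin receptor of layer 6, differed by -0.64 ± 0.20 (SE, adjusted p 0.326), and by -0.25 with slide as a block. Nr4a2, another marker of layer 6b, did not follow: knockout read 1.63, 1.09 and 1.40, within the wild-type span of 1.08 to 3.28, and Syt6, of layer 6, also overlapped.

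The other 5 lower genes were Col6a1, Bhlhe22, Pcp4, Whrn and Cadps2, with differences from -0.67 to -0.11, Col6a1 lacking a value for knockout 3. The higher genes included Inhba, Rspo1, Dkk3, Deptor and Lamp5, with differences from 0.36 to 0.68. Without wild-type 3 those of Rspo1, Dkk3, Deptor and Lamp5 were 0.35, 0.19, 0.20 and 0.20, and with slide as a block that of Inhba was 0.37. The smallest adjusted p among these genes was 0.330, for Inhba.

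Markers of other regions and of the meninges moved between the samples too. All 13 striatum markers had a difference below 0, with a median of -0.80, and 4 of them did not overlap. Their summed linear signal, over the 12 with a value on every array, ranged from 21.2 to 67.0 in wild type and from 22.9 to 27.0 in knockout, the top value being that of wild-type 3. All 10 meningeal markers were below 0 (median -0.54, 5 without overlap), with sums of 11.3 to 19.5 in wild type and 8.90 to 12.5 in knockout. Of 9 hippocampal and dentate markers, 7 were above 0 (median 0.32, 4 without overlap), with sums of 4.58 to 6.51 in wild type and 6.99 to 7.47 in knockout. Most of each sum came from a single gene, Stxbp6, which read between 1.87 and 2.65 on the log2 scale. The dentate markers Prox1 and Dsp had differences of -0.12 and -0.77, below 0, and that of Fibcd1 was 0.004. The median difference was 0.02 over the neuron markers, 0.04 over interneuron, -0.03 over thalamus and -0.24 over olfactory bulb markers. The thalamus sums did not overlap, at 9.99 to 10.6 in wild type and 9.01 to 9.26 in knockout. Most of each thalamus sum came from Ramp3 and Zic1, which differed by 0.08 and -0.60, both with overlap. Of the 10 thalamus markers 1 was free of overlap by itself, and it was higher in knockout. The median difference was -0.33 over oligodendrocyte, -0.02 over astrocyte and 0.00 over microglia markers. Set against the wild-type mean, the oligodendrocyte median was -0.10, 0.47 and -0.37 in wild type and -0.05, -0.72 and -0.26 in knockout. Of the 10 oligodendrocyte markers 9 were below 0 and 1, Mbp, was above it, at 0.33 and free of overlap. Every one of the striatal, meningeal and hippocampal markers counted here was tested and none was at 0. Over all genes 19.8% were free of overlap. The part of these markers in the members' differences was not tested. Without wild-type 3 the differences of Nxph4, Rprm and Cplx3 were -0.60, -0.50 and -0.76, and those of Lmo3 and Fezf2 were -0.25 and 0.27.

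The members' values were spread unevenly over the samples. Wild-type 3 was the lowest of the 6 samples in 16 of 34 members, among them Fezf2, Etv1, Zfpm2, Tle4, Tox, Pou3f1 and Pou3f2, and knockout 1 was the highest in 10. The wild-type samples spanned a wider range than the knockout samples in 28 of 34 members, with median ranges of 0.52 and 0.18, while this held for 64.1% of all genes. The per-sample median of the deep-layer members, each set against its wild-type mean, was 0.00, 0.24 and -0.21 in wild type and 0.08, 0.01 and 0.31 in knockout. For the upper-layer members it was 0.09, -0.20 and 0.16 in wild type and -0.04, 0.23 and 0.12 in knockout. In both layer groups the samples interleaved, whereas the 13 members not restricted to a layer stood at 0.08, 0.03 and -0.11 in wild type and at 0.18, 0.17 and 0.10 in knockout.

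**Figure D5:**
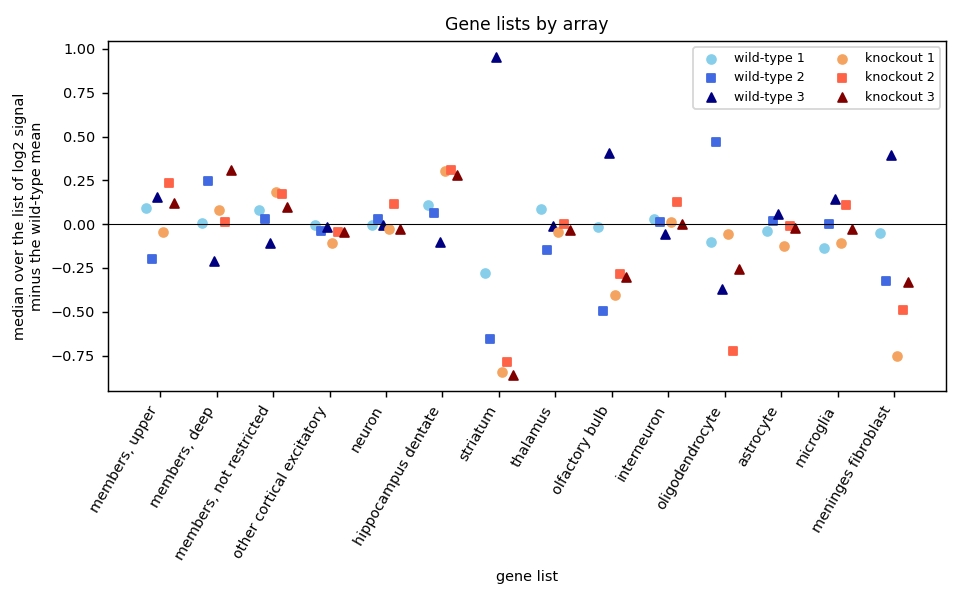
Median over each gene list of the log2 signal minus the gene's wild-type mean (vertical axis) for every array. The member groups and the neuron markers lie within 0.31 of 0 on every array, while the striatum markers reach 0.96 on wild-type 3 and lie between -0.86 and -0.79 on the knockout arrays.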

How the data were processed

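The deposited files give spot intensity on a linear scale, made with Agilent Feature Extraction 12.1.1.1 from array scans and with probe positions in mm9, per the file headers. That software subtracted the background from the processed signal and detrended it, and the mean signal and local background median are uncorrected intensities, per the file headers. The labels' protocols state column-purified total RNA labelled with Cy3.

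Control spots and outlier spots (68 to 530 per array) were left out, spots of a probe were averaged on the log2 scale, and the 75th percentile of an array's non-control probes was subtracted from its values. Tested probes (31954 of 39429) were well above background on all arrays of either group, with 2 or more values in both groups. The brightest tested probe stood for its gene. Groups and replicate numbers came from the sample titles. Knockout and wild type were compared with limma 3.58.1 in R 4.3.3 (lmFit and eBayes, two-sided, no covariate), with Benjamini-Hochberg adjustment over 22578 genes. Tested on simulated data, this fit recovered 69% of genes changed by 1 on the log2 scale and 92% of those changed by 2 (100 of each, 22335 genes). It also called 7 unchanged genes. The simulated noise was normal and independent between genes, with no slide effect and no outlying array. These shares therefore need not hold for the real arrays. A group is free of overlap when all 3 of its values lie on 1 side of the other group's.

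Same-numbered samples did not deviate together (correlations of -0.02, -0.13 and -0.12), so the numbers were not used as pairs. Gene names follow RefSeq accessions in the annotation of GRCm38.p6 where they matched (29510 probes). The members, the layer groups, the list of other cortical genes and 10 lists of cell type and region markers were chosen with earlier results of these data known. All members are accounted for, and values on every array are given for members free of overlap or with an unadjusted p under 0.05 and for the defining genes Cux2, Rorb, Tbr1, Fezf2, Neurod6 and Emx1. Etv1, Tshz2, Crym and, of the other genes, Ccn2 and Nr4a2 were added after their values were seen. Of the other cortical genes, those free of overlap and Slc17a7, Bcl11b and Foxp2 are named, with Syt6 added likewise, and some genes are not reported here. The alternatives covered background correction, normalization, the filter on dim probes, the probe that stands for a gene, outlier spots, the slide, the replicate number as a block and leaving out each sample.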

Additional observations from a re-analysis of the deposited data

How the results depend on the processing

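The count of members with an adjusted p under 0.05 was 0 in each of the 17 alternatives and for single probes, an alternative chosen after seeing the data. The smallest adjusted p of a member was 0.0779, for Nxph4 without knockout 1, a setting in which 60 of all genes passed. With the replicate number as a replicate block, 0 members passed and 2406 genes had an unadjusted p under 0.05, against 2806 without it, and the block changed no call. Of the 34 members, 21 had no sign change in any setting, among them Nxph4, Rprm, Cplx3 and Lmo3.

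Leaving out 1 sample at a time, the members free of overlap numbered 7 to 12 higher and 4 to 7 lower, and the median of all members ranged from 0.059 to 0.18. Within the slide that holds both genotypes 12 were higher, and with fewer samples such counts can only stay or rise. With slide as a block or within that slide the medians were 0.057 for all members, -0.042 for the upper layers and 0.18 for members not restricted to a layer. With median centring they were 0.26 for all members and 0.24 for the unrestricted ones.

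Small differences changed sign, and the cause was not tested. With median centring these were Cux1 (0.031), Emx1 (0.063), Tbr1 (0.14), Slc17a7 (0.071), Bcl11b (0.068) and Cadps2 (0.032). With slide as a block or within the slide they were Cux2 (-0.091), Neurod1 (-0.069), Neurod2 (-0.0098) and Sox5 (-0.12). With the mean over probes they were Neurod1 (-0.014) and Tbr1 (0.0020), with quantile normalization Neurod2 (-0.0026) and with the replicate block Sox5 (-0.0080). Without 1 sample, sign changes came in Emx1 (-0.15 to 0.0061), Id2 (-0.015 to 0.086), Neurod1 (-0.16 to 0.20), Neurod2 (-0.036 to 0.10), Otof (-0.30 to 0.0018), Plxnd1 (-0.62 to 0.16), Pou3f2 (-0.026 to 0.31), Slc30a3 (-0.12 to 0.26), Sox5 (-0.12 to 0.31), Tbr1 (-0.035 to 0.062), Tle4 (-0.11 to 0.15) and Bcl11b (-0.14 to 0.023). Every member probe was well above background on all 6 arrays, and which limit weighs most was not compared.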
